A study of Mus musculus with 2 samples.

Results

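Csf1, Il6, Csf2, Csf3, Lif and Osm encode secreted cytokines that act as growth factors of blood and stromal cells. They were selected by their gene symbol: a probe belonged to a gene when the platform annotation gave it that symbol and no other. Of these 6 genes, 5 had such a probe, 1 probe each, among 4331 measured genes in all, and Osm was not analysed here. The set was drawn up with the ratios of Csf1 and Il6 already known, so the ratios below describe the members and carry no test.

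The groups were CD4+ alpha beta T cells from LatY136F spleens and the same cells from wildtype spleens, enriched on anti-CD4 beads (MACS) and sorted by flow cytometry. LatY136F replaces a tyrosine of Lat by phenylalanine. Lat is the membrane adaptor that gathers signalling proteins behind the T cell receptor, and the altered tyrosine is the one that recruits phospholipase C gamma. The sources used here give neither the age and sex of the mice nor their number, and name no treatment. Total RNA of both groups shared each of 2 two-colour arrays, which form a dye-reversal pair and 1 biological comparison. Whether the arrays used separate RNA extracts is not stated, so the spread between the arrays may be technical and does not measure that between mice.

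Each value is a log2 ratio of LatY136F over wildtype, centred on the array's median. The ± gives 0.5 times the difference between the 2 arrays. Genes at least 2-fold apart in the same direction on both arrays were called higher or lower. The deposited ratios were taken to be on a log10 scale, which is likely and not certain, and to be channel 2 over channel 1, which is not stated either. Under this reading the T helper 2 genes Gata3 (2.93 ± 0.02) and Il13 (3.39 ± 0.27), named after their values were seen, were higher in LatY136F cells. Published background describes LatY136F T cells as strongly polarised to that type, which is the basis of the direction, called likely here. Lat itself gave -0.17 ± 0.004, but a probe for its transcript does not check a substitution of 1 amino acid. If the opposite reading holds, every "higher" below becomes "lower". The arrays give no signal level, so how bright a probe was, and how precise its ratio is, is unknown.

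As background, Csf1 is the growth factor on which most macrophages depend, and acts through a receptor tyrosine kinase. Il6, Lif and Osm belong to the family whose receptors share the chain gp130 (gene Il6st) and signal through JAK kinases to STAT3. Il6 also acts back on T cells, where it favours the Th17 and follicular helper types. Csf2 acts on granulocytes, macrophages and dendritic cells through a receptor that shares its beta chain with those of Il3 and Il5, and activated T cells are a well known source of it. Csf3 drives the formation of neutrophils.

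Csf1 and Il6 were far higher in LatY136F cells, while Csf2, Csf3 and Lif had no direction that both arrays shared. Of the 5 measured members, 2 were called higher, which is 40% of them, and none was called lower. Over all genes 182 of 4331 were called higher (4.20%) and 42 lower (0.970%). Since the ratios of Csf1 and Il6 led to the choice of the set, nothing is read from that share. The median ratio of the 5 members was 0.22, and that of all genes 0.0004.

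Csf1, the macrophage growth factor, gave a log2 ratio of 4.82 on array 1 and 4.55 on array 2. This is 28.3-fold and 23.4-fold higher in LatY136F cells, and the mean of 4.69 ± 0.14 corresponds to 25.7-fold. The spread between the arrays was close to the median of all genes for Csf1, with 45.9% of genes differing less. By its mean Csf1 ranked 2nd of 4331 genes. On array 2 it ranked 1st among the genes, and its deposited value of -1.363 was the lowest of that array. A ratio of at least 16-fold on both arrays was seen for 6 of 4331 genes (0.139%), Csf1 among them, while Il6 missed it on array 2.

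Il6, the inflammatory cytokine of the gp130 family, gave 5.43 on array 1 and 3.65 on array 2. These are 43.2-fold and 12.6-fold, and the mean of 4.54 ± 0.89 corresponds to 23.3-fold. The arrays thus differed more for Il6 than for Csf1: 94.7% of genes differed less than Il6, against a median difference of 0.15 on the ± scale over all genes. As the dyes were reversed between the arrays, noise and a dye effect cannot be told apart in this difference. It ranked 2nd of the genes on array 1, 11th on array 2 and 3rd by its mean.

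The order of Csf1 and Il6 was not settled. On array 1 the ratio of Csf1 lay 0.61 below that of Il6, and on array 2 it lay 0.90 above it. The difference of their means, 0.14 for Csf1 minus Il6, is smaller than the ± of Il6.

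**Figure D1:**
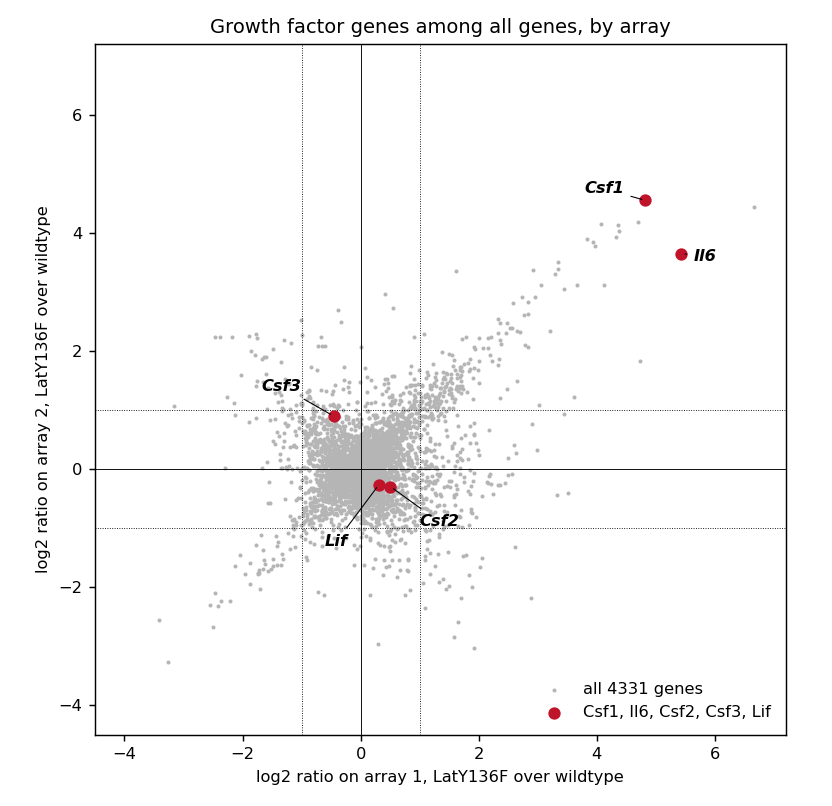
Log2 ratio of LatY136F over wildtype on array 1 (x axis) and array 2 (y axis), both arrays turned the same way and centred, for all 4331 genes (grey) and the 5 measured members (red). Dotted lines mark 2-fold. Csf1 (4.82 and 4.55) and Il6 (5.43 and 3.65) lie at the upper right, and Csf2, Csf3 and Lif lie in quadrants where the arrays have opposite signs.

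Csf2, the granulocyte and macrophage factor, gave 0.50 on array 1 and -0.30 on array 2, with a mean of 0.10 ± 0.40. Lif, a gp130 cytokine known for holding mouse embryonic stem cells undifferentiated, gave 0.31 and -0.26, with a mean of 0.02 ± 0.29. Csf3, the neutrophil factor, gave -0.46 and 0.90, with a mean of 0.22 ± 0.68. For each of these 3 genes the sign differed between the arrays and the ± was larger than the mean, so neither a higher nor a lower level was detectable. Opposite signs are common in these data: 44.2% of all genes had them. The largest single value among the 3 was the 1.86-fold ratio of Csf3 on array 2, set against 0.728-fold on array 1. By mean ratio the members ran from Csf1 and Il6, which cannot be ordered, to Csf3, Csf2 and Lif, which cannot be ordered either.

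The genes whose ratios on the 2 arrays lay nearest to those of Csf1 were Ccl8, Slpi and Ier3, at distances of 0.38, 0.62 and 0.68 on the log2 scale. Ccl8, a chemokine gene, stood at 4.44 ± 0.25. Slpi, a secreted inhibitor of neutrophil proteases, stood at 4.25 ± 0.12, and the early response gene Ier3 at 4.20 ± 0.17. Nearest to Il6 were Ccl8 (0.91), Csf1 (1.09) and Ier3 (1.12). With 2 values per gene, this likeness says only that the ratios were of similar size on each array.

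The promoter sequences of the 2 high members are printed next to those of 2 members without a direction, Csf2 and Lif, because both pairs can then be compared for sites of inducible factors. Entries were found for 4 of the 6 members in the RefSeq table (GRCm38.p6). Each window is the 250 bases before the annotated start, read 5′ to 3′ on the gene's strand. It lies at chr3:107760470-107760719 (minus strand) for Csf1, chr5:30012864-30013113 (plus strand) for Il6, chr11:54249900-54250149 (minus strand) for Csf2 and chr11:4257318-4257567 (plus strand) for Lif. Capitals mark every match, on either strand, to the motifs of NF-kB, AP-1 (TGANTCA), C/EBP (TTGCNNAA), CRE (TGACGTCA) and STAT (TTCNNNGAA).
Csf1: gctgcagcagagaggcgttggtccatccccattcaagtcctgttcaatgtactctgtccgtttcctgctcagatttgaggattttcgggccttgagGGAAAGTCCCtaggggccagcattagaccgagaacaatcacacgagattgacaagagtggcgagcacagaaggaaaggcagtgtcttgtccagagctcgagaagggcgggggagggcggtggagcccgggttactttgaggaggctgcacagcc
Il6: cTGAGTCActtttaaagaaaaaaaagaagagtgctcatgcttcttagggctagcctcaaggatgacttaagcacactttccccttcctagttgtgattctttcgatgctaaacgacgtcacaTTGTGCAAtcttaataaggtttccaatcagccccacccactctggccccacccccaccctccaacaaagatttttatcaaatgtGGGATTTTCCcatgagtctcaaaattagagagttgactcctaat
Csf2: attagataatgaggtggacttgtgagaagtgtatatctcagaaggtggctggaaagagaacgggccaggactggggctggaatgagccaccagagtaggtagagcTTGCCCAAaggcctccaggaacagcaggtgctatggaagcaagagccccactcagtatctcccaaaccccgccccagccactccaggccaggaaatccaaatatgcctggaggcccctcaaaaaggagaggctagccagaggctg
Lif: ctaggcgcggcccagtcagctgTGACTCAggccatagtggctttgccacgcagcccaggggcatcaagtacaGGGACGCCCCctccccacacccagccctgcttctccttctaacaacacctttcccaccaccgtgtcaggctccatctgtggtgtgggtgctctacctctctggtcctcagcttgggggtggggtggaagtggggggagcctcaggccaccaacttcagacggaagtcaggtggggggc

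The Csf1 window held 1 match, GGAAAGTCCC to the NF-kB motif, which began 154 bases before the start. The Il6 window held 3: the AP-1 match TGAGTCA 249 bases before the start, the C/EBP match TTGTGCAA at 128 and the NF-kB match GGGATTTTCC at 44. Of the members without a direction, Csf2 held the C/EBP match TTGCCCAA at 145, and Lif held the AP-1 match TGACTCA at 228 and the NF-kB match GGGACGCCCC at 178. An NF-kB match therefore stood in the windows of Csf1 and Il6 and also in that of Lif. No match overlapped another. Among all 32851 promoter windows of the same length, 7.25% held an NF-kB match, 6.75% an AP-1 match, 9.56% a C/EBP match, 1.55% a CRE match and 7.02% a STAT match. The windows of Csf1, Il6, Csf2 and Lif held no CRE or STAT match in these letters. Each window rests on 1 annotated start, and bases further upstream or after that start were not searched. A window without a match, such as that of Csf2 for NF-kB, therefore does not show that the gene lacks such a site. Their GC content was 56.4% for Csf1, 42.8% for Il6, 55.2% for Csf2 and 63.6% for Lif, against a median of 52.4% over all windows.

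Other ligands were read from lists chosen with earlier results of these data known. Of 10 genes of the gp130 ligand family 4 were measured and 2 called higher, Il6 and Ebi3 (50%, beside 4.20% of all genes). Ebi3, a subunit of the cytokines IL-27 and IL-35, gave 1.27 and 1.56 on the 2 arrays, a mean 2.66-fold higher in LatY136F cells. Il11, another gp130 cytokine, gave 0.09 and -1.13. Of 13 colony-stimulating and haematopoietic factors 10 were measured, and Csf1 alone was called (10%, beside the same 4.20%), with a list median of 0.07. The ratios of Il6 and Csf1 led to the choice of the set, so nothing is read from either share. Il5, the eosinophil growth factor and a Th2 cytokine, gave 0.86 and 1.42, just short of the threshold on array 1. Il3, which lies beside Csf2 on chromosome 11 and acts through the same beta chain, gave 0.33 and -1.28. The values of Il11, Il5 and Il3 fall outside the rule for named genes and were singled out after they were seen.

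Of 33 other secreted growth factors 25 were measured, with 1 called higher, none lower and a median of -0.004. The one called was Hgf, hepatocyte growth factor, at 1.44 and 1.62, a mean 2.89-fold higher. In the 3 ligand lists together 39 genes were measured. Without Csf1 and Il6, whose ratios led to the choice of the set, 2 of 37 were called higher (5.41%) and none lower, near the 4.20% and 0.970% of all genes. Opposite signs on the arrays were seen for 27 of the 39 (69.2%), beside 44.2% of all genes. In the list of other growth factors the arrays opposed each other by 2-fold or more each way for 5 of 25 genes (20%), beside 1.73% of all genes. They were, named after their values were seen, Pgf, Fgf1, Fgf2, Ptn and Angpt2. Pgf, for example, gave 2.02 on array 1 and -1.66 on array 2, and Fgf1 gave -1.45 and 1.30. Since the sign of array 2 was reversed, the deposited ratios of these genes leaned to the same channel on both arrays. A dye effect was not tested, and nothing is read from this share about growth factor genes.

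**Figure D2:**
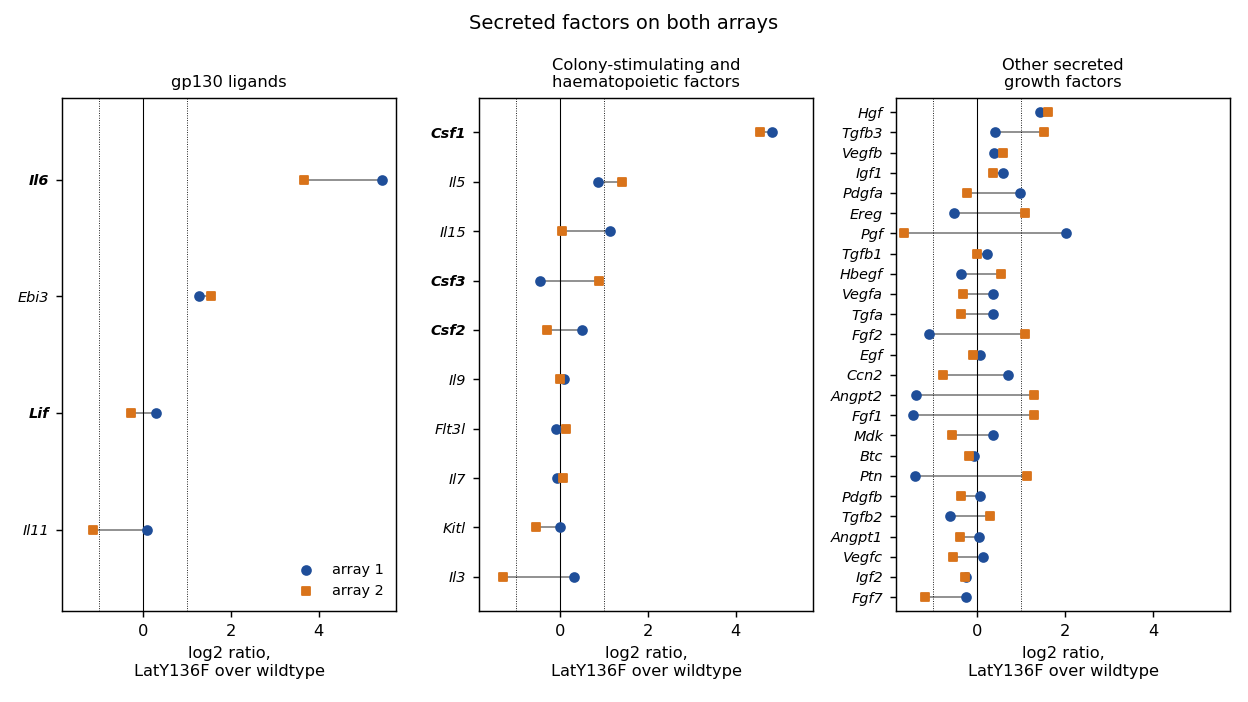
Log2 ratio of LatY136F over wildtype (x axis) on array 1 (circles) and array 2 (squares) for the measured genes of the 3 ligand lists, ordered by mean, with a line joining the arrays and dotted lines at 2-fold. Members are in bold. Csf1 and Il6 stand apart at the right, Ebi3 and Hgf pass 2-fold on both arrays, and long lines crossing 0 mark genes such as Pgf and Fgf1 whose arrays oppose each other.

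None of the measured receptors of the members was called, beside 5.17% of all genes called in either direction. With so few genes, nothing is read from this. Of 9 receptor genes 8 were measured, and 6 of the 8 had opposite signs on the arrays, beside 44.2% of all genes, again too few genes to read from. The Csf1 receptor gene Csf1r was not analysed here. Il6ra, the chain that binds Il6, gave -0.76 on array 1 and 0.49 on array 2, and Il6st, the shared chain gp130, gave 0.03 and -0.24. Lifr, the receptor chain for Lif, gave 0.39 and -0.48, and Osmr, that for Osm, gave -0.08 and -0.23 as the average of 2 probes. The Osmr probes disagreed, at -0.25 and 0.14 against 0.09 and -0.59, so the shared sign comes from averaging. These 4 chains of the gp130 family thus stayed below 2-fold on each array.

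Among receptors of the colony-stimulating factors, Csf3r gave 0.37 and -0.05, and Csf2ra, the alpha chain for Csf2, gave -0.40 and 1.04. The shared beta chain Csf2rb had the highest mean of the list, 0.77 ± 0.18, but its 2 probes disagreed. One probe (BE853146) passed 2-fold on both arrays with a mean of 1.69, and the other (NM_007780) gave -0.70 and 0.39. Csf2rb2, the closely related beta chain of the mouse Il3 receptor, gave -0.43 and 1.42. Csf2rb and Csf2rb2 are near-identical copies, so which RNA each probe bound is uncertain. In the wider list of 14 measured receptors the median was 0.16, and Il27ra, the receptor for IL-27, followed Csf2rb at 0.64 ± 0.09.

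Of 16 measured JAK-STAT signalling and feedback genes 3 were called higher (18.8%, beside 4.20% of all genes) and none lower (0.970% of all genes), and the median was 0.13. This list and that of STAT target genes were chosen with earlier results of these data known, so nothing is read from either share. Cish, a STAT5-induced inhibitor, was 6.42-fold higher (2.76 and 2.60), Socs3, the STAT3-induced inhibitor that binds gp130, 2.90-fold (1.53 and 1.54) and the kinase Jak2 2.23-fold (1.09 and 1.23). Jak2 rests on 2 probes with means of 1.27 and 1.05. The inhibitors Socs1 (0.87 and 0.93) and Socs2 (0.64 and 0.64), singled out after their values were seen, were not called. Of 15 measured STAT3 and STAT5 target genes 3 were called higher (20%, beside the same 4.20%) and none lower, with a median of 0.29. Cish and Socs3 are on this list too, so the lists are not independent, and the other was Batf, an AP-1 family transcription factor, 4.04-fold higher (1.78 and 2.24). Fos and Myc, early response genes on the same list, singled out after their values were seen, gave -0.37 and 0.18 for Fos and -0.44 and -0.57 for Myc.

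**Figure D3:**
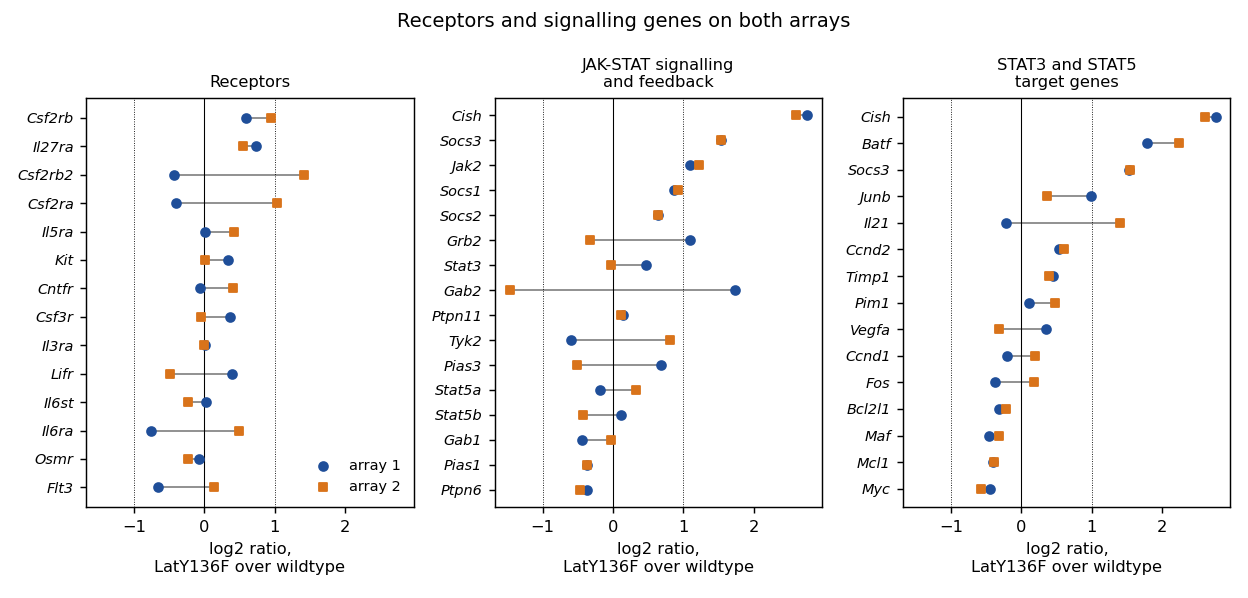
Log2 ratio of LatY136F over wildtype (x axis) on array 1 (circles) and array 2 (squares) for measured receptors, JAK-STAT genes and STAT target genes, ordered by mean, with dotted lines at 2-fold. No receptor lies beyond 2-fold on both arrays, while Cish, Socs3, Jak2 and Batf do.

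Genes that act on the transcription of Il6 and Csf2 held no call, beside 5.17% of all genes called in either direction, and nothing is read from this. Of 30 listed 26 were measured, with a median of 0.04. Nfkbia, the NF-kB inhibitor and itself an NF-kB target, had the highest mean at 0.70 ± 0.07, and the AP-1 gene Fosl1 stood at -0.67 ± 0.35. Of 12 regulators of cytokine mRNA decay 3 were measured and none called, with a median of 0.92. Elavl1, which stabilises such mRNAs, stood at 0.92 ± 0.11, and Tial1, a translational repressor, gave 2.07 on array 2. On array 1 the deposited value of Tial1 is exactly 0, which may not be a measured ratio, and without Tial1 the list median is 0.70. Of 6 sheddases 2 were measured and none called: Adam17 stood at 0.37 ± 0.40 and Adam15 at 0.03 ± 0.05.

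Genes listed as markers of other cell types, though not all particular to them, stood beside the high ratios of Csf1 and Il6. The marker lists were chosen with earlier results of these data known. Over all genes 4.20% were called higher and 0.970% lower. In RNA of a bulk sample, more cells of a type and more RNA per cell cannot be told apart, and the ratios do not show which markers are near background. Of 8 measured CD4 T cell markers none was called, with a median of -0.04 and means from -0.88 (Cd247) to 0.81 (Cd5). Of 19 measured monocyte and macrophage markers 10 were called higher and none lower, with a median of 1.23 and means from -0.45 to 3.42. They were led by Ccr2 (10.7-fold), the mannose receptor Mrc1 (6.63-fold), the complement gene C1qc (5.57-fold) and the lysozyme Lyz1 (4.84-fold). The other 9 were not called. Among these, singled out after their values were seen, were Itgam (0.29), Ctss (-0.13), Marco (-0.34) and Msr1 (-0.45). Of 7 neutrophil markers 3 were higher and none lower, with a median of 1.02 and means from 0.16 to 3.62. These were Il1r2 (12.3-fold), Lcn2 (8.83-fold) and Ngp (5.65-fold). The part of monocytes, macrophages and neutrophils in the ratios of Csf1 and Il6 was not tested.

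B cell markers went the other way: 8 of 14 were called lower (0.970% of all genes) and none higher (4.20% of all genes). Their median was -1.27, with means from -2.29 to -0.21. Cd79b was 4.89-fold lower, Ighm 3.76-fold, Cr2 3.38-fold and Cd72 3.33-fold. The 2 Ighm probes differed, at -2.85 and -0.98. Of 2 measured CD8 markers Cd8b1 was 4.67-fold lower, while Cd8a, at -0.78 and -0.47 on the arrays, was not called. Erythroid and platelet markers were higher for 4 of 5 measured (median 1.20), with Epor 5.35-fold, Pf4 2.93-fold, Itga2b 2.30-fold and Hba-a1 2.10-fold. Of 8 genes listed for dendritic cells, though not all particular to them, Cst3 was 2.28-fold higher and Ly6d 2.49-fold lower (median -0.002). Of 5 natural killer cell markers Klrd1 was 3.37-fold lower (median -0.32). Stromal and endothelial markers, of which 8 of 13 were measured, held no call (median 0.03), with Fn1 at 1.12 ± 0.30 and Tek at 0.79 ± 1.08. Mast cell, basophil and eosinophil markers held none among 5 (median 0.75), with Ms4a2 at 1.20 ± 0.23 and Fcer1a at 1.16 ± 0.83.

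**Figure D4:**
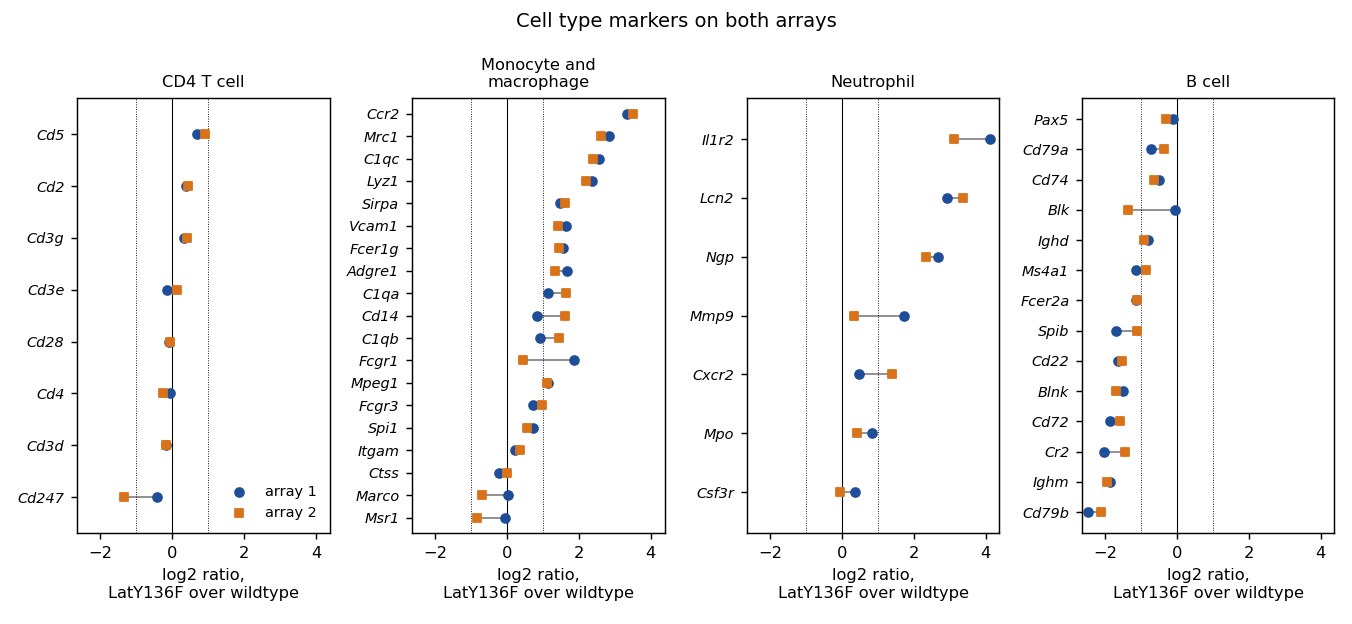
Log2 ratio of LatY136F over wildtype (x axis) on array 1 (circles) and array 2 (squares) for markers of CD4 T cells, monocytes and macrophages, neutrophils and B cells, ordered by mean, with dotted lines at 2-fold. No CD4 T cell marker, 10 of 19 monocyte and macrophage markers and 3 of 7 neutrophil markers lie above 2-fold on both arrays, and 8 of 14 B cell markers lie below it.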

How the data were processed

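The authors deposited 1 log ratio per probe and array (2 arrays, 8014 probes). Its base is not stated: the deposited values were read as log10 because array 1 stops at exactly 2, a 100-fold limit on that scale. Only 1 probe holds that value, and the lowest value of array 2 was -1.363, so this basis is thin. The scanner, the background correction and the normalization are not stated either. The deposited columns correlated with a Pearson r of -0.21 over probes, and, per the labels, the arrays have opposite polarity, so array 2 was multiplied by -1. Values were multiplied by 3.32 to give log2 and centred on each array's median. The platform annotation named a single gene for 4654 probes, more than 1 gene for 73 and no gene for 3287; 4640 of the 4654 were found in the RefSeq table (GRCm38.p6). Probes of a gene were averaged.

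With 1 biological comparison no test was made. Named genes were all members and their receptors, the 4 strongest called genes of each list (or 2 where none was called), and the 3 genes nearest to each called member. Members and lists were chosen with earlier results of these data known. Python 3.11.15, numpy 2.4.6, pandas 2.3.3 and matplotlib 3.10.9 were used.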

Additional observations from a re-analysis of the deposited data

How the results depend on the processing

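Csf1 and Il6 were called higher under every alternative but the turned sign, which gives -4.69 for Csf1, -4.54 for Il6, 0 members higher, and 42 genes higher and 182 lower. Read as log2, Csf1 stands at 1.41 and Il6 at 1.37, with 13 genes higher and 0 lower, so the size of every fold rests on the log10 reading. Single arrays put Csf1 at 4.55 to 4.82 and Il6 at 3.65 to 5.43, and Csf2 (-0.30 to 0.50), Csf3 (-0.46 to 0.90) and Lif (-0.26 to 0.31) changed sign between them; they called 341 to 408 genes higher and 145 to 151 lower. Asking for 1.5-fold in place of 2-fold called 339 genes higher and 127 lower, and asking for 3-fold called 69 and 19. No centring, scaling of the arrays, the strongest probe per gene, leaving out values of exactly 0 and a 2-fold threshold on the mean kept both counts within 1.5 times. Of 28 other named genes that were called, 4 were called when read as log2, 18 at 3-fold and 0 with the sign turned. The alternatives for Osm were not run, since it was not analysed here. No paired analysis was possible because the dye-reversal pair is a single comparison. The number of arrays limits the precision.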

Other observations

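Genes that lie within 200 kb of a member on the chromosome were looked up after the ratios were seen. Of 8 such measured genes, members left out, 1 was called, beside 5.17% of all genes called in either direction, and nothing is read from a single call. That gene, Thra, a thyroid hormone receptor gene near Csf3 on chromosome 11, gave -1.32 and -1.52 on the 2 arrays, lower in LatY136F cells. Beside Csf3, Psmd3, a proteasome subunit gene, gave -0.04 and 0.03, and Med24, a Mediator subunit gene, gave 0.15 and 0.27. Beside Csf1 on chromosome 3, Ahcyl1 gave 0.03 and -0.08 and Gstm5 gave -0.41 and 0.74. No gene within 200 kb of Il6 on chromosome 5 was measured.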
